A study of Mus musculus with 6 samples.

Results

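The baseline transcriptome of wild-type (WT) nasal septum cartilage was described from 3 of the 6 libraries in the series. The 3 were chosen by their labels, as those of genotype WT. Each came from a separate C57BL/6 mouse embryo at embryonic day 14.5, and no allele, transgene or treatment is labelled for them. Cartilage of the anterior nasal septum was laser captured from frozen head sections at matched positions. Each library began with 15 ng of total RNA, which was amplified to double-stranded cDNA (NuGEN Ovation), turned into sequencing libraries with Nextera XT and read as pairs of 100 bp. The other 3 libraries, from embryos of an Apert syndrome model, are not used here, and no genotypes were compared. With 1 group there is no test between conditions, and the results are levels and the spread of each level over the 3 libraries.

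The nasal septum is a midline plate of hyaline cartilage that supports the growing face. Chondrocytes secrete a matrix of fibrils built from type II collagen with types IX and XI, and aggregates of the proteoglycan aggrecan bound to hyaluronan through link protein fill the space between fibrils. The transcription factor Sox9 drives this program together with Sox5 and Sox6. Facial cartilage descends largely from neural crest. At the ends of growing cartilage, chondrocytes can later enlarge, express type X collagen and give way to bone, whereas much of the septum stays cartilage.

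Levels are given in CPM, a gene's counts per 1000000 counts of its library, with library totals scaled by the trimmed mean of M values (TMM). Levels of different genes are ranked in CPM per kb, in which CPM is divided by the length of the gene's merged exons. Each mean is followed by the SD over the 3 libraries (n = 3), and values by library run in the order of WT replicates 1, 2 and 3. The 3 libraries held 10834744, 10053237 and 8631181 counts, so that 3 counts, the limit that a count of 0 allows, were 0.277, 0.298 and 0.348 CPM. This limit covers counting error only. Of 38924 genes listed, 12318 reached 1 CPM in each library, or 31.6%, and these are called detected below. The genes listed include 5926 pseudogenes and 4238 long noncoding genes, so 31.6% is not the share of protein-coding genes. The share among the 21213 nuclear protein-coding genes was not counted. A total of 6962 genes reached 10 CPM in each library and 1276 reached 100 CPM. No count was found in any library for 17330 genes. Each count of detected list members given below stands beside the 31.6% of all genes listed, and no list was tested against it.

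All 5 genes that mark cartilage, the labelled tissue, were high in each library. Col2a1, which encodes the type II collagen chain, reached 17694, 26046 and 18666 CPM and was the highest nuclear protein-coding gene. Col9a1 (a type IX collagen chain) stood at 1512.5, 1713 and 1733 CPM, and Acan (aggrecan) at 960.4, 1679 and 1023 CPM. Sox9 stood at 898, 846 and 665 CPM and Matn1, which encodes the cartilage protein matrilin-1, at 391, 581 and 464 CPM. Markers of other cell types are given further on.

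Per kb of exons, matrix, growth and imprinted genes led the list, which leaves out mitochondrial genes, predicted gene models and genes under 200 bases. Col2a1 averaged 3466.5 ± 761 CPM per kb, ahead of the imprinted noncoding RNA H19 at 1456 ± 349, link protein gene Hapln1 at 1187 ± 79.5, the nuclear RNA Malat1 at 1017 ± 109.5 and Igf2, a fetal growth factor, at 964 ± 156.5. Of the 25 genes with the highest levels per kb, 6 were matrix genes (Col2a1, Hapln1, Col9a3, Col11a1, Cnmd and Fn1). Papss2, which makes the sulfate donor for proteoglycans, and the collagen-modifying enzyme genes Plod2 and P4ha3 were also among the 25. Translation and folding genes filled other places (among them Eef1a1, Rpl4, Rpl31, Npm1 and Hsp90ab1). H19 shares exon bases with Mir675, Col9a3 with Tcfl5, Xist with its antisense gene Tsix and Mest with Copg2. Counting took no account of strand, so part of those counts is uncertain.

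**Figure D1:**
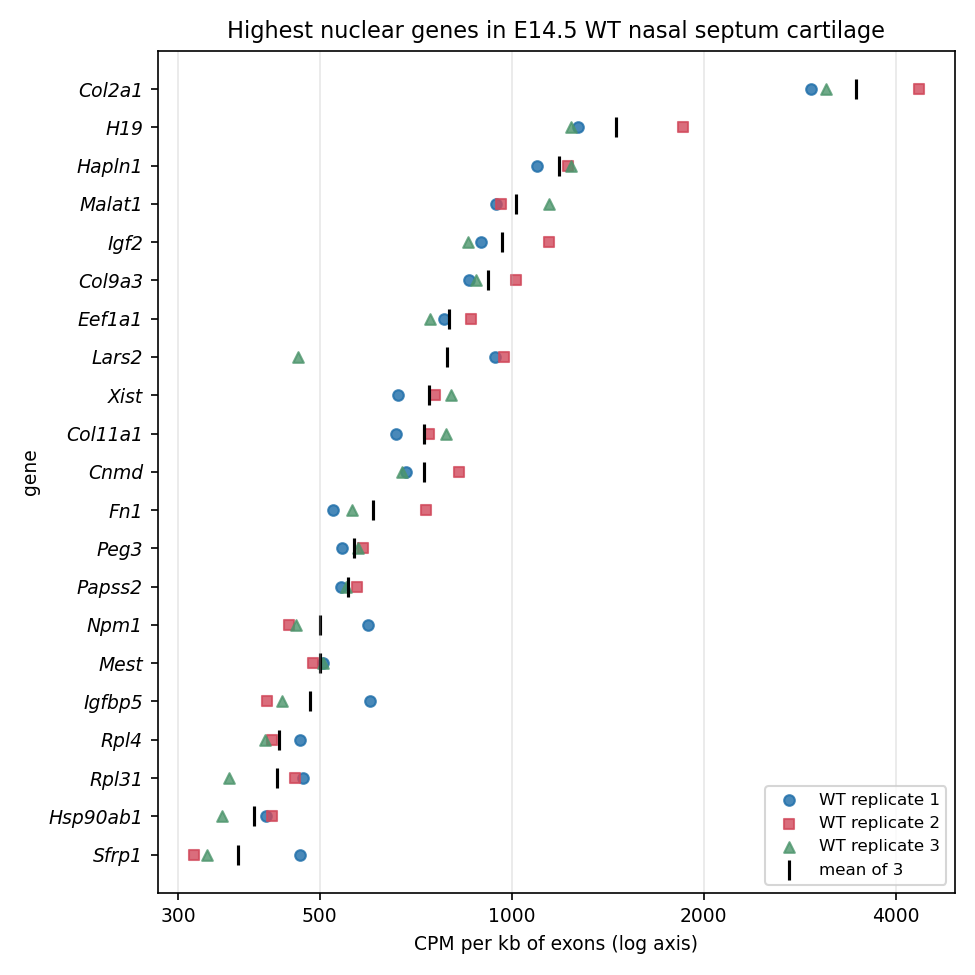
The 21 nuclear genes with the highest mean level, predicted gene models and genes under 200 bases left out, in CPM per kb of exons on a log axis; each symbol is 1 WT library and the black bar is the mean of 3. Col2a1 lay above every other gene shown in all 3 libraries, and Lars2 was the gene whose replicate 3 stood farthest below the other 2.

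Nuclear protein-coding genes held 62.7% ± 0.72 of counts. Of those, Col2a1 alone held 3.31% ± 0.687, the highest 10 genes 10.3% ± 1.05, the highest 100 genes 23.5% ± 0.946 and the highest 1000 genes 56.3% ± 0.306. It took 731 genes to reach 50%. The 47 genes of 3 cartilage matrix lists (collagens, proteoglycans with hyaluronan and link genes, and other matrix proteins) held 8.64% ± 1.16. In the order of the libraries that share was 7.63%, 9.91% and 8.38%, highest in replicate 2.

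All 7 cartilage collagen genes were detected, and their levels spanned a wide range. Col2a1 lies on the minus strand at chr15:97975602-98004695 (mm10, the build of every gene position given here) and averaged 20802 ± 4567 CPM. Col11a1, which encodes a chain of the thin fibril core, reached 6360.5, 7157 and 7621 CPM, and lies at chr3:114030540-114220718. Col9a3, whose product decorates the fibril surface, reached 3306, 3911 and 3382 CPM, and lies at chr2:180597790-180622189. In each library the order per kb was the same: Col2a1, Col9a3, Col11a1, Col9a1, Col27a1, Col9a2 and Col11a2, so every neighbour in this order differed in 3 of 3 libraries. In CPM, however, Col11a1 was above Col9a3 in each library. Col11a2 was likewise above Col9a2 (209, 472 and 277 against 173, 264.5 and 161 CPM). The places of these 4 genes per kb thus rest on the exon lengths used. Mean levels per kb were 917 ± 85.5 for Col9a3, 730 ± 66.0 for Col11a1, 326 ± 24.1 for Col9a1, 104 ± 21.8 for Col27a1, 64.5 ± 18.3 for Col9a2 and 46.7 ± 20.0 for Col11a2.

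Chains of the same collagen type were thus far from equal. Per kb, Col9a3 was 2.82 ± 0.225 times Col9a1, and Col9a1 was 5.29 ± 1.31 times Col9a2. Col11a1 was 17.2 ± 5.74 times Col11a2, with 21.5, 10.7 and 19.5 in the 3 libraries. Both low chains, Col9a2 and Col11a2, are rich in GC (62.7% and 62.9% of bases), as is Col2a1 (62.2%), and the part of GC content in these ratios was not tested. Col11a2 was the only member that varied at least 2 times between libraries, at 209, 472 and 277 CPM. Such a range was found in 308 of the 7622 genes of mean CPM 10 or more, or 4.04%. The chain of collagen I, Col1a1, made by bone and fibrous tissue, was 165 ± 36.5 times lower per kb than Col2a1, and its partner chain Col1a2 33.1 ± 5.22 times lower.

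**Figure D2:**
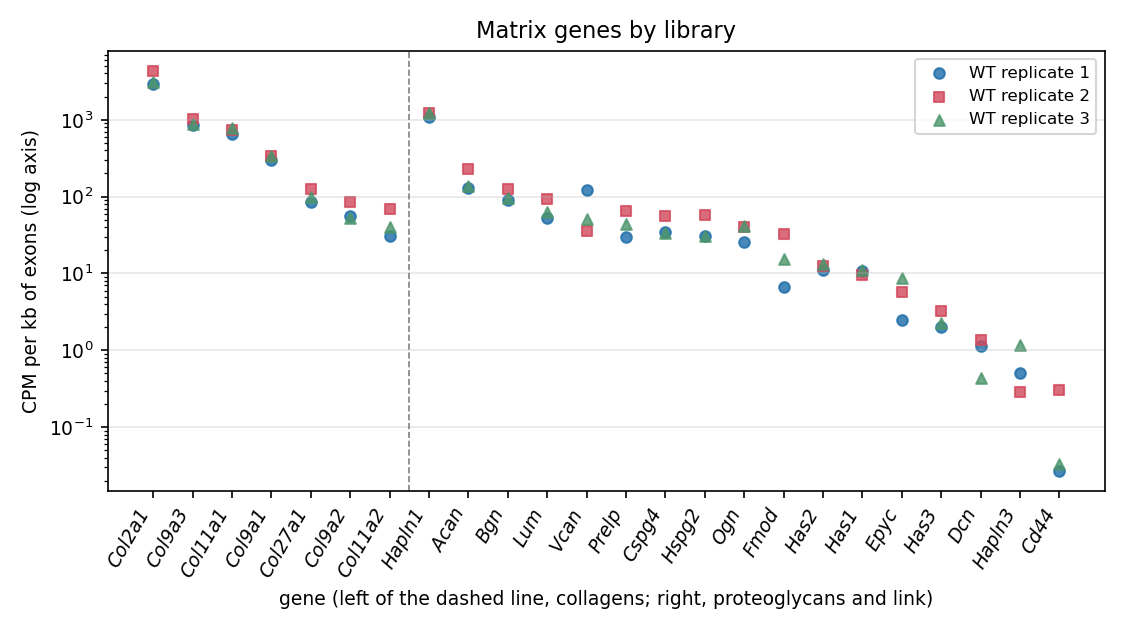
Levels of collagen genes (left of the dashed line) and of proteoglycan, hyaluronan and link genes (right), in CPM per kb of exons on a log axis, with 1 symbol for each WT library. The order of the collagens is the same in each library, while Vcan is highest in replicate 1 and Fmod, Prelp, Acan and Hspg2 are highest in replicate 2.

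The link protein gene Hapln1, on the plus strand at chr13:89540636-89611832, led the proteoglycan list. It reached 5539, 6197 and 6268 CPM and varied 1.13 times between libraries, little beside other members. Acan, at chr7:79053483-79115099, encodes the proteoglycan that link protein ties to hyaluronan, and averaged 166 ± 54.1 CPM per kb. Hapln1 was 7.56 ± 1.91 times higher than Acan per kb. The small leucine-rich proteoglycan gene Bgn followed at 554, 761 and 579 CPM. Its relatives Lum, Prelp and Ogn averaged 144.5 ± 44.6, 169 ± 65.2 and 91.3 ± 22.5 CPM, whereas Dcn reached only 2.40, 2.86 and 0.903 CPM. Cd44, a hyaluronan receptor gene, was at 0.184, 2.05 and 0.226 CPM. Has2, Has1 and Has3, which make hyaluronan, reached at most 55.6, 23.4 and 20.6 CPM.

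Versican was the least even of the abundant genes. Vcan, a proteoglycan gene of early condensations and loose connective tissue, reached 1764, 517 and 739 CPM. Replicate 1 stood 3.41 times above replicate 2, and the CV (SD over mean) of 66.1% was the highest among genes of mean CPM 100 or more, against 0.988% from counting alone, predicted gene models left out. Acan over Vcan per kb was therefore 1.07, 6.39 and 2.72, with the lowest ratio in replicate 1. Vcan lies on the minus strand at chr13:89655312-89742509. Fmod (fibromodulin, a fibril-binding proteoglycan) ran from 22.0 in replicate 1 to 106.5 in replicate 2, with 50.4 in replicate 3. Prelp (108, 237 and 161 CPM) and Epyc (6.36, 14.6 and 22.2 CPM) were also at least 2 times apart, and in both replicate 1 was lowest. In all, 4 of 14 members of mean CPM 10 or more varied this much, against 4.04% of all genes of that level.

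Of 23 other matrix and adaptor genes, 19 were detected. Cnmd encodes chondromodulin, a protein of avascular cartilage that inhibits vessel growth, and reached 1260.3, 1523 and 1242 CPM, or 728 ± 85.2 per kb. Fn1, the fibronectin gene, reached 4356, 6106 and 4678 CPM. Cytl1, a secreted protein gene of chondrocytes, averaged 275 ± 58.2 CPM per kb, close to Matn1 at 239 ± 47.8 and Sparc (a collagen-binding matricellular protein) at 231 ± 38.9. Chad, whose product binds chondrocyte integrins, averaged 102 ± 14.7 CPM per kb. Matn3 was uneven at 53.6, 155 and 128 CPM, lowest in replicate 1, and Matn4 was even at 165, 187 and 164.5 CPM. Comp, abundant in later cartilage and tendon, was at 0.921, 5.63 and 2.94 CPM, and Cilp did not exceed 0.226 CPM. Mgp, an inhibitor of mineralization, varied 3.23 times, at 14.7, 47.7 and 32.6 CPM.

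The starts of the matrix genes differ in how many CpG pairs they hold. The 100 bases before the start of 5 high matrix genes are printed to show this range, from RefSeq on GRCm38.p6, with CpG pairs in capitals. They lie at chr13:89540536-89540635 (plus strand) for Hapln1, chr14:79662184-79662283 (minus) for Cnmd, chr3:114030440-114030539 (plus) for Col11a1, chr7:79053126-79053225 (plus) for Acan and chr4:130944285-130944384 (plus) for Matn1. For Acan and Cnmd the RefSeq start lies upstream of the start of the gene as counted.
Hapln1: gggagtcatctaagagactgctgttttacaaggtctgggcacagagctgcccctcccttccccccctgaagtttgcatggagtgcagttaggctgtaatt
Cnmd: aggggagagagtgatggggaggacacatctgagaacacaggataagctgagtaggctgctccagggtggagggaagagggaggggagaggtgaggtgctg
Col11a1: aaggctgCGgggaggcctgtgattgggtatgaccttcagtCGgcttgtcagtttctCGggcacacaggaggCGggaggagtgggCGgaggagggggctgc
Acan: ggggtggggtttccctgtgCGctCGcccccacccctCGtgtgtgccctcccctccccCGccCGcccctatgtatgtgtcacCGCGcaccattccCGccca
Matn1: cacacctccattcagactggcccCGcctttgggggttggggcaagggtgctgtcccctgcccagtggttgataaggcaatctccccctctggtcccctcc
Over 250 bases before the start, Hapln1 held 2 CpG pairs, Cnmd 0, Col11a1 7, Acan 26 and Matn1 4. The median was 6 over 26 promoters of matrix genes of mean CPM 10 or more (23 of 35 genes matched), 6 over all 32851 promoters in the table and 17 over 7641 promoters of genes of mean CPM 10 or more. The letters TATAAA, searched on both strands of the same 250 bases, were in 3 of the 26 matrix promoters (11.5%), in 12.4% of all promoters and in 5.89% of those of genes of mean CPM 10 or more. These matches are descriptions of sequence and not sites of binding.

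Of 16 matched genes of chondrocyte transcription factors and partners, 13 were detected, and none of the 11 of mean CPM 10 or more varied 2 times. That range was found in 4.04% of all genes of that level, so a list of 11 may hold none. Sox9 lies at chr11:112782224-112787760 and averaged 194 ± 29.6 CPM per kb. Sox5 and Sox6, its partners, averaged 93.0 ± 9.92 and 98.4 ± 13.1 per kb. Their ratio per kb was narrow, with Sox6 1.06 ± 0.0291 times Sox5 and above it in 3 of 3 libraries. In CPM Sox5 was the higher in each library, at 1477, 1192 and 1344 against 991, 760 and 864. The order per kb thus rests on the exon lengths used, 14376 bases for Sox5 and 8852 for Sox6. Per kb Sox9 was 2.10 ± 0.374 times Sox5. Wwp2, a ubiquitin ligase gene that hosts a cartilage microRNA, reached 999.8, 896 and 944 CPM. Trps1 and Runx1, which act in chondrocyte maturation and early chondrogenesis, averaged 237 ± 13.2 and 152 ± 14.2 CPM. Foxc1, a factor of craniofacial mesenchyme, averaged 81.4 ± 17.9 CPM and its paralog Foxc2 26.6 ± 8.22 CPM. Nkx3-2, a repressor that acts early in chondrogenesis, was lower at 2.30, 2.86 and 3.05 CPM. Foxa2 did not exceed 0.614 CPM and Barx1 had 1 count in all.

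Several high transcripts carry microRNA genes. Mir140, which acts in chondrocytes, lies in an intron of Wwp2 at chr8:107551244-107551313, Mir455 in an intron of the collagen gene Col27a1 at chr4:63256851-63256932, and Mir675 in an exon of H19 at chr7:142577064-142577147. The mature sequences from RefSeq (GRCm38.p6), with the seed (bases 2 to 8) in capitals, are given to identify the products of these hosts. No pair of those printed shares a seed, and miR-140-5p is not printed.
miR-140-3p: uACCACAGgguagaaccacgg
miR-455-5p: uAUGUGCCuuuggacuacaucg
miR-455-3p: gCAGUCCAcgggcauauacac
miR-675-5p: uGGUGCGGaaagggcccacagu
miR-675-3p: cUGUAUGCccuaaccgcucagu
Libraries of this kind do not measure the mature forms. Over the short hairpin genes, 21, 23 and 16 counts fell on Mir140, 4, 0 and 2 on Mir455, and 0 in each library on Mir675, which shares its bases with the H19 exon. The hosts averaged 947 ± 51.8 CPM for Wwp2, 1349 ± 283 for Col27a1 and 3454 ± 827 for H19. Dnm3os, which hosts Mir199a-2 and Mir214 in its exons, reached 200, 110 and 177 CPM.

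Genes for sulfated glycosaminoglycan chains were detected in 26 of 28 cases, and none of the 21 of mean CPM 10 or more varied 2 times. With 4.04% of all genes of that level varying so, a list of 21 may hold none. Papss2 at chr19:32620005-32667187 was among the steadiest abundant genes, at 1964, 2078 and 2000.1 CPM, and stood 20.6 ± 2.01 times above its paralog Papss1 per kb. The sulfate transporter gene Slc26a2, mutated in human chondrodysplasias, was as even, at 942.5, 957.5 and 927 CPM (CV 1.60%, against 1.04% from counting). Chst11, which sulfates chondroitin, was less even at 415, 732.5 and 570 CPM. Chsy1 (chain polymerization), Csgalnact1 (chain start), Ugdh (UDP-glucuronate supply) and the nucleotide sugar transporter Slc35d1 averaged 181 ± 15.2, 195 ± 37.4, 316 ± 16.7 and 334.5 ± 39.8 CPM. Ext1 and Ext2, which build heparan sulfate, averaged 113 ± 7.04 and 164 ± 37.5 CPM. Chst13 had 0 counts in each library and Chst7 had 1 count in all.

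All 39 genes of collagen folding, processing and the endoplasmic reticulum were detected, 32 of them at 10 CPM or more in each library. The lysyl hydroxylase gene Plod2 reached 1655, 1323 and 1428 CPM and stood 22.6 ± 4.09 times above Plod1 per kb. The prolyl hydroxylase subunit gene P4ha3 reached 1064, 1074 and 969 CPM and stood 9.13 ± 0.73 times above P4ha1. The chaperone genes Hsp90b1, Hspa5 and Pdia3 averaged 1078 ± 163, 545 ± 36.8 and 439 ± 45.4 CPM. Creb3l2, a factor of secretory capacity in chondrocytes, averaged 994 ± 50.6 CPM, and Serpinh1, the collagen-specific chaperone, 300.2 ± 27.6 CPM. Of 34 genes of mean CPM 10 or more, only Creb3l1 varied 2 times (7.92, 15.96 and 11.8 CPM), against 4.04% of all genes of that level.

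Of 19 hypertrophy genes 12 were detected, 7 of them at 10 CPM or more in each library, and 4 had 0 counts in each library. Col10a1, the classic marker of hypertrophic chondrocytes, was at 7.001, 5.319 and 5.983 CPM, or 1.95 ± 0.271 per kb, and shares exon bases with Nt5dc1. Alpl, Mmp13, Ibsp and Phospho1, which belong to late hypertrophy and mineralization, had 0 counts in each library, and Ihh had 1 count in all. Sp7, needed for osteoblasts, did not exceed 0.339 CPM, Spp1 had 1 count and Dmp1 and Bglap2 had 0. Higher members of the list included genes with wider roles: Runx2 (90.6, 91.3 and 86.4 CPM), Mef2c (111, 87.0 and 109 CPM), Enpp1 (128, 186 and 172 CPM) and Vegfa (32.6, 41.4 and 33.3 CPM). Pthlh, a signal that holds back hypertrophy, averaged 5.95 ± 1.16 CPM and its receptor gene Pth1r 14.9 ± 1.82 CPM. Panx3 was lowest in replicate 1, at 4.98, 16.7 and 14.1 CPM. Of 13 osteoblast genes 4 were detected, among them Col1a2 at 1226, 1349 and 1210 CPM and Col1a1 at 101, 230 and 112 CPM. Per kb Col1a2 was 5.18 ± 1.78 times Col1a1, in 3 of 3 libraries.

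Perichondrium is the fibrous sheath around cartilage, and several genes of its list are known from mesenchyme and cartilage too. Of 32 list members 27 were detected, with Col12a1 at 1126.5 ± 122.5, Fbn1 at 352.5 ± 20.7, Col14a1 at 321 ± 48.0, Col3a1 at 295 ± 36.3, Postn at 252 ± 20.9, Prrx1 at 231 ± 4.25 and Mfap4 at 178 ± 45.0 CPM. Tenascin gene Tnc averaged 160 ± 33.2 CPM. Thy1, Dpt and Tnmd (surface, dermal and tendon genes) had 0 counts in each library, and the tendon factor Scx was at 3.50, 1.74 and 1.69 CPM. Col1a1, Aspn, Eng and Col6a3 varied 2 times, 4 of the 20 members of mean CPM 10 or more, and each was highest in replicate 2. Of all genes of that level 308, or 4.04%, varied this much, and 188 of the 308 were highest in replicate 2. In captured tissue, fewer cells of a type and less RNA per cell cannot be told apart. Of 8 joint and articular genes only Erg, Sfrp2 and Prg4 were detected. Erg reached 355, 220.5 and 205 CPM, while Gdf5, a joint marker, did not exceed 0.511 CPM and Prg4, the lubricin gene, was at 2.30, 2.25 and 2.82 CPM.

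Among 23 genes of fibroblast growth factor (FGF) signalling, 14 were detected, and the receptor genes Fgfr1, Fgfr2 and Fgfr3 stood above every ligand gene of the list per kb. Fgfr2, annotated at chr7:130162451-133123350 and sharing exon bases with Ctbp2, reached 744, 617 and 635.5 CPM, or 91.9 ± 9.44 per kb. Because of the shared bases, part of the Fgfr2 level, and so of its ratios to other receptor genes, is uncertain. Fgfr1 averaged 29.4 ± 4.06 and Fgfr3 15.5 ± 1.39 CPM per kb. The order Fgfr2, Fgfr1, Fgfr3 held in 3 of 3 libraries, with Fgfr2 3.15 ± 0.344 times Fgfr1 and Fgfr1 1.92 ± 0.418 times Fgfr3. The decoy receptor gene Fgfrl1 averaged 31.5 ± 2.98 CPM per kb, close to Fgfr1. Fgf18, a ligand that acts on chondrocytes, had 0 counts in replicate 1 and 5.42 and 3.05 CPM in the others, and Fgf2 ran from 2.45 in replicate 2 to 9.12 CPM in replicate 1. Fgf8 and Fgf9 had 0 counts in each library. Among genes that FGF signalling induces in many tissues, Etv5 averaged 112 ± 21.5, Spred1 167 ± 15.8, Spry2 7.01 ± 1.75 and Dusp6 6.34 ± 1.55 CPM.

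Of 17 hedgehog genes 11 were detected, none of them a ligand gene. Neither Shh (0 counts) nor Ihh (1 count in all) nor Dhh (at most 0.921 CPM) was detected. Smo, the signal transducer, reached 237, 292 and 195 CPM, and the co-receptor genes Cdon, Boc and Gas1 averaged 250.5 ± 31.4, 143 ± 16.5 and 109.5 ± 27.8 CPM. The effector genes Gli2 and Gli3 averaged 107 ± 12.1 and 109 ± 8.59 CPM. Ptch1 and Gli1, which hedgehog signalling induces, reached 64.7, 116 and 77.4 CPM and 3.96, 13.5 and 6.66 CPM. In both genes replicate 2 was highest and replicate 1 lowest.

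Of 33 Wnt genes 20 were detected. The secreted inhibitor gene Sfrp1 stood out at 2037, 1388 and 1455 CPM, or 372 ± 81.7 per kb. That was rank 21 among nuclear genes, with predicted gene models and genes under 200 bases left out. Dkk3 averaged 115 ± 29.1 CPM, Frzb, an inhibitor known from cartilage, only 6.10 ± 1.99 CPM, and Dkk1, Sost and Notum had 0 counts in each library. Wnt5a was the highest ligand gene per kb, at 32.45 ± 3.72 CPM per kb, with 283, 254 and 225 CPM. The receptor genes Lrp6, Fzd7 and Fzd2 averaged 611 ± 12.8, 79.9 ± 11.6 and 54.1 ± 10.9 CPM, and the effectors Ctnnb1 and Tcf7l2 reached at most 545 and 312 CPM. Axin2 and Lef1, targets of the pathway, averaged 11.4 ± 2.12 and 9.08 ± 1.80 CPM. In 12 of 15 members of mean CPM 10 or more, replicate 1 was above the mean of the 3 libraries. How many of all genes were above their mean in replicate 1 was not counted.

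Of 39 genes of bone morphogenetic protein (BMP) and transforming growth factor beta (TGF-beta) signalling, 35 were detected, against 31.6% of all coding and noncoding genes. None of the 28 of mean CPM 10 or more varied 2 times. Of all genes of that level 4.04% did, so a list of 28 may hold none. The receptor genes Bmpr1a and Bmpr2 averaged 352 ± 12.1 and 234 ± 33.0 CPM, and Bmpr1b, an early chondrogenic receptor, was at 62.4, 50.6 and 63.1 CPM. The signal transducer genes Smad5, Smad4 and Smad3 averaged 249.6 ± 7.53, 104 ± 2.09 and 96.6 ± 10.4 CPM. Of the ligands, Tgfb2 led at 20.2 ± 3.52 CPM per kb, or 95.6 ± 16.6 CPM, Bmp7 stood at 40.7, 33.1 and 33.3 CPM, and Bmp4 at 23.4, 35.1 and 25.2 CPM, while Tgfb1 did not exceed 0.553 CPM. Fstl1, a secreted modulator, was the highest member at 160 ± 11.3 CPM per kb, and the BMP target Id3 averaged 50.8 ± 11.8 CPM.

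Insulin-like growth factor (IGF) and imprinted genes were among the most abundant of all. The 25 matched genes held 3.07% ± 0.121 of all counts. Igf2 reached 5130, 6544 and 4884.5 CPM and the neighbouring H19, expressed from the other parental allele, 3013, 4408 and 2941 CPM. Replicate 2 was highest in both, and H19 over Igf2 per kb was 1.498 ± 0.111. Peg3, a paternally expressed zinc finger gene, was steady at 7213, 7782 and 7637 CPM. Mest, Peg10, Plagl1 and Grb10, also imprinted, averaged 1966 ± 41.2, 1896.5 ± 304, 1907 ± 318 and 1759 ± 58.9 CPM. Cdkn1c, an imprinted cell cycle inhibitor needed for cartilage growth, averaged 475 ± 25.4 CPM. The noncoding RNAs Meg3 and Rian, expressed from 1 locus, reached 566, 1107.5 and 1018 CPM and 940.4, 1381.5 and 1444 CPM, lowest in replicate 1 for both. Igf1 was low and uneven at 7.46, 10.2 and 17.2 CPM. Among binding proteins, Igfbp5 averaged 2902 ± 609 CPM, 69.0 ± 12.8 times Igfbp4 per kb, while Igfbp2, Igfbp3 and Igfbp7 were at or below 1.12 CPM and Igfbp1 and Igfbp6 had 0 counts.

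Genes that pattern the face and neural crest were unequal in level, with 21 of 38 detected, against 31.6% of all coding and noncoding genes. Six2, a homeobox gene of frontonasal mesenchyme, reached 317, 254 and 244 CPM, or 128 ± 18.5 per kb. Alx1, needed for the frontonasal skeleton, averaged 160 ± 13.4 CPM, Tfap2b 281 ± 33.7, Eya1 179 ± 6.85 and Alx4 71.2 ± 6.93 CPM. Pax3 and Pax9 were at 24.5, 20.0 and 22.1 CPM and at 8.47, 10.1 and 10.7 CPM. Dlx1, Dlx2 and Dlx6, which pattern the jaw, did not exceed 0.226 CPM, and Hand1, Hand2, Lhx6, Lhx8, Pax1 and Pax7 had 0 counts in each library. Dlx3 reached at most 0.553 CPM, and Dlx5 was at 0.37, 0.82 and 1.58 CPM. Of 38 matched Hox genes, which mark levels of the body behind the face, 34 had 0 counts in each library. Hoxb9 alone was detected, at 3.96, 3.68 and 2.48 CPM, and Hoxb8, Hoxb5 and Hoxa9 had 1 or 2 counts in all.

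Matrix-degrading enzymes and their inhibitors were represented by Mmp2, Mmp14 and Mmp16 (232 ± 23.8, 83.3 ± 6.52 and 151 ± 20.0 CPM) and by Timp2, Reck and Timp3 (248.8 ± 40.5, 203 ± 12.1 and 93.8 ± 10.5 CPM). The aggrecanase genes Adamts4 and Adamts5 stayed at or below 5.34 and 3.50 CPM, Mmp9 at or below 3.17 CPM, and Mmp13 and Mmp3 had 0 counts. All 28 adhesion genes were detected, led by the glypicans Gpc3 and Gpc6 at 146 ± 15.5 and 138 ± 5.06 CPM per kb. Itga10, a collagen II receptor of chondrocytes, varied 2.58 times, at 26.4, 68.2 and 39.1 CPM, and was highest in replicate 2. Of 33 genes of glycolysis and hypoxia 32 were detected. Hif1a, an oxygen-regulated transcription factor gene that acts in avascular cartilage, was even at 181, 182 and 185 CPM, whereas its relative Epas1 was at 2.67, 6.04 and 3.95 CPM. Ldha averaged 451 ± 45.6 CPM, and Car12, a carbonic anhydrase gene, 399 ± 19.5 CPM.

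All 40 cell cycle genes were detected. Mki67, a marker of cycling cells, reached 550, 866 and 672 CPM, Top2a 184.5, 258 and 219 CPM, and Pcna 55.1, 72.7 and 71.5 CPM. In these 3 genes replicate 1 was lowest and replicate 2 highest. Of 36 genes of mean CPM 10 or more, 33 were above their mean in replicate 2. The share of all genes above their mean in replicate 2 was not counted. Of the 36, 7 varied 2 times (Tyms, Rrm2, Bub1b, Mcm5, Aurkb, Plk1 and Ccne1), against 4.04% of all genes of that level. Replicate 2 was also the highest library in 188 of the 308 genes that varied 2 times. Cyclin gene Ccnd2 averaged 379 ± 28.1 CPM and Ccnd1 90.5 ± 20.6 CPM.

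Lists of other cell types that a nasal section could hold differed in members detected, against 31.6% of all coding and noncoding genes. None of 15 epithelial genes was detected, and Krt5, Krt14, Krt15, Krt19 and Cdh1 had 0 counts in each library. Their summed level was 7.55, 4.19 and 2.93 CPM. Of 16 muscle genes Neb and Ttn were detected, and Myod1, Myog, Myf5 and Actc1 had 0 counts. The list summed to between 23.6 and 37.2 CPM. Of 15 leukocyte genes Cd68 and C1qc were detected, at 4.39 ± 1.26 and 4.67 ± 0.638 CPM, and the sum ran from 11.1 to 19.4 CPM. Of 18 neuron genes 4 were detected, and the sum was 48.8, 62.2 and 71.8 CPM. Map2, a microtubule protein gene that shares exon bases with Gm10558, made up most of it at 37.3, 41.3 and 61.6 CPM, and Tubb3 and Rbfox3 had 0 counts in each library. Gnrh1, the hormone gene of neurons that cross the nose, was at 3.41, 3.68 and 1.69 CPM, and Gap43 at 2.03, 10.4 and 3.05 CPM. The olfactory gene Omp had counts in replicate 2 only, at 0.307 CPM. Of 14 erythroid genes 6 were detected, and the list summed to 96.4, 163 and 121.5 CPM. Tfrc, a transferrin receptor gene of many dividing cells, was at 39.9, 62.9 and 44.6 CPM, and Alas2, which starts heme synthesis and shares exon bases with Apex2, at 29.3, 32.1 and 46.9 CPM. The globin genes Hba-x, Hbb-y and Hba-a1 reached 26.8, 14.4 and 13.7 CPM in replicate 2, where each was highest.

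Of 15 endothelial genes Erg, Sox18 and Vwf were detected, but Erg made up nearly the whole of the summed level of 361, 233 and 215 CPM. The defining genes were at or near 0: Pecam1 at 0.829, 1.64 and 2.15 CPM, Cdh5 at most 0.307, Kdr at most 0.307 and Tie1 at most 0.226 CPM. Of 16 glial genes 8 were detected. Sox10, a factor of neural crest and its glia, reached 170, 167 and 120 CPM, S100b 74.6, 106 and 91.9 CPM, and Erbb3 153, 139 and 131 CPM. S100b and Sox10 are also known from chondrocytes. Mbp, a myelin gene, averaged 1.60 ± 0.940 and Ngfr 0.273 ± 0.0671 CPM, and Foxd3, Olig1 and Olig2 had 0 counts. Whether these counts come from chondrocytes or from other cells was not tested.

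**Figure D3:**
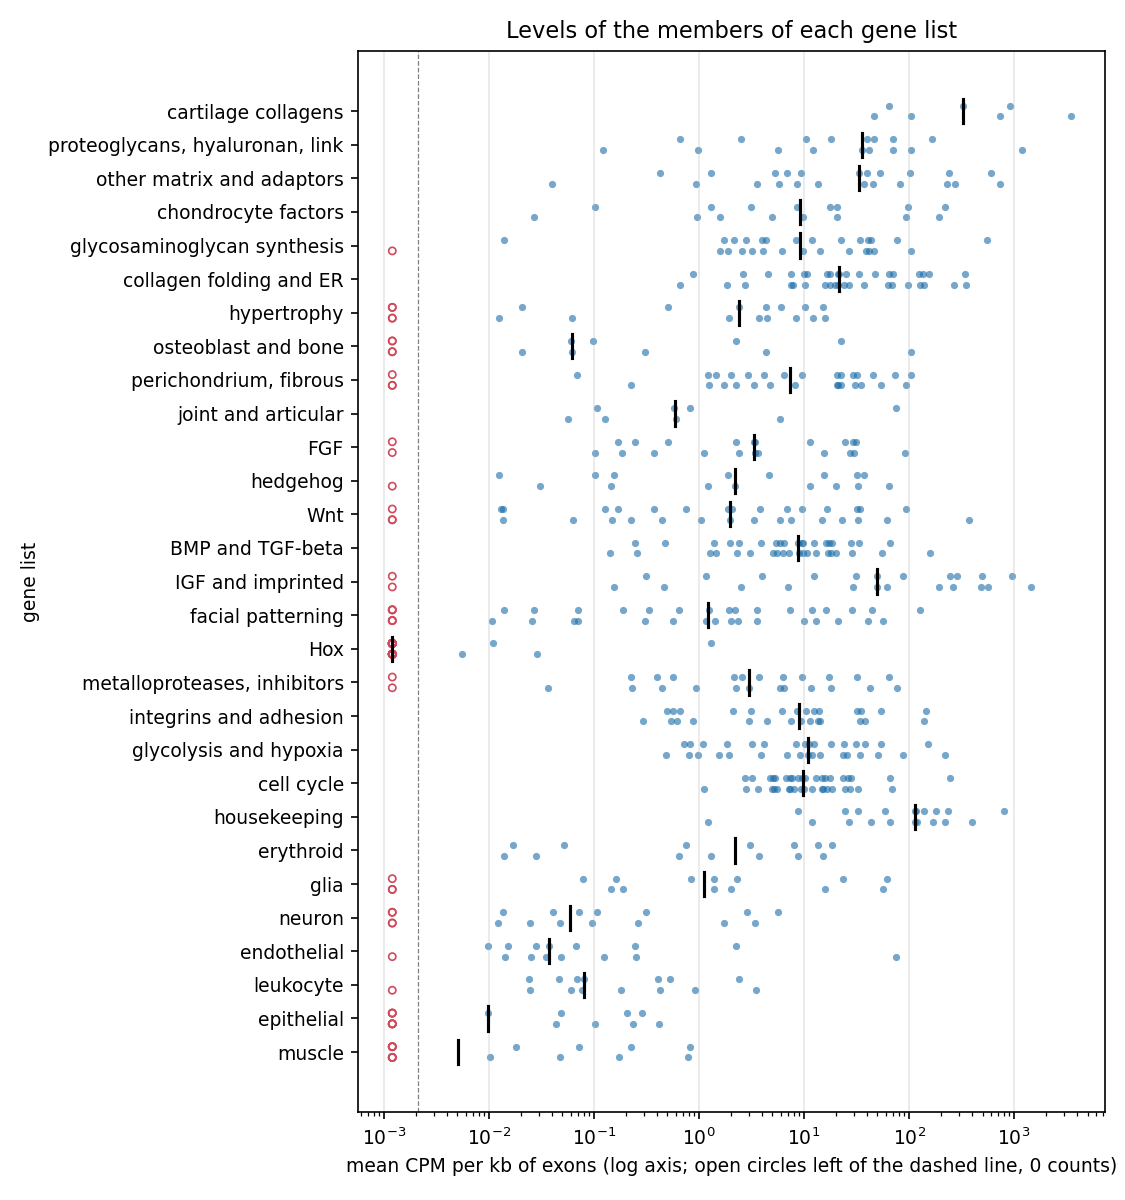
Mean level of each member of 29 gene lists in the 3 WT libraries, in CPM per kb of exons on a log axis; each filled point is a gene, each open circle left of the dashed line a gene with 0 counts, and the black bar the median of the list. The median of the cartilage collagens lies farthest right and those of the Hox, muscle, epithelial and endothelial lists farthest left, with Erg the lone endothelial point near 75.1.

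The mitochondrial genome took 29.6% ± 0.756 of counts, of which the ribosomal RNA genes mt-Rnr1 and mt-Rnr2 held 26.3% of all counts. Its protein genes were very uneven: mt-Co1 averaged 6840.1 ± 799 CPM per kb, mt-Co2 36.8 ± 8.60 and mt-Atp6 10.9 ± 1.46, and mt-Co1 was 1163 ± 30.2 times mt-Co3 per kb. Nuclear genomes carry near-identical copies of mitochondrial sequence and reads that map to more than 1 place were not counted, so these levels are uncertain. Gm42418, a gene model over ribosomal RNA sequence, held 2.58%, 4.55% and 1.94% of counts. Lars2, a mitochondrial tRNA ligase gene, was at 3649, 3773 and 1795 CPM, so that replicate 3 was lowest for both genes. The part of ribosomal RNA in the Lars2 level was not tested. Xist, made by the inactive X chromosome, averaged 13281 ± 1263 CPM, and the 8 Y-linked genes of the list had 0 counts in each library. Of 18 immediate early genes 8 were detected, against 31.6% of all coding and noncoding genes. The immediate early list summed to 72.5, 159 and 117 CPM. Klf6 was its highest member, at 23.0, 76.0 and 57.6 CPM, and Fosb did not exceed 0.921 CPM.

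Levels in the 3 libraries were close but farther apart than counting error. Across the 12318 detected genes Pearson's r of log2 CPM was 0.965 for replicates 1 and 2, 0.973 for 1 and 3 and 0.969 for 2 and 3, a description across genes, which are not independent replicates. The common biological coefficient of variation was 0.201 (edgeR, intercept only). In genes of mean CPM 10 or more the median CV was 13.1%, against 5.45% from counting. The median CV by level was 31.8% for genes of mean CPM 1 to 10, 14.4% from 10 to 100, 8.91% from 100 to 1000 and 11.6% above that, where counting alone would give 0.717%. For each pair of libraries the median squared difference was 3.73 to 5.21 times the counting variance, against 0.455 for counting alone, and the 3 were kept as separate replicates. Of the 308 genes that varied 2 times, 188 were highest in replicate 2, 74 in replicate 1 and 46 in replicate 3, and 160 were lowest in replicate 1. Over only 2 libraries, which can only narrow the range, the count was 114 without replicate 1, 92 without replicate 2 and 214 without replicate 3.

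**Figure D4:**
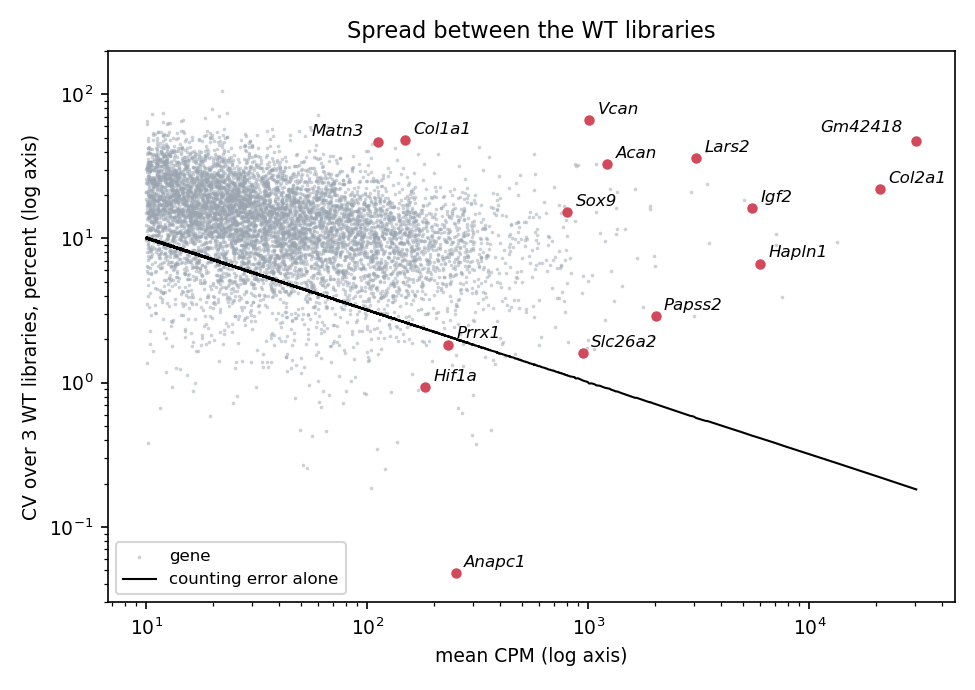
CV over the 3 WT libraries against mean CPM, both on log axes, for nuclear genes with a symbol of mean CPM 10 or more; the line is the CV from counting error alone and red points are genes named in the text. Most genes lie above the line, Vcan and Col1a1 far above it, while Anapc1, Hif1a and Prrx1 lie below it.

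Among genes of mean CPM 100 or more, predicted gene models left out, the 10 highest CVs belonged to Vcan, Col1a1, Matn3, Itih5l-ps, Col11a2, Neat1, Zfp385b, Prelp, Fry and Hspg2. All but Vcan were highest in replicate 2. Hspg2, the basement membrane proteoglycan gene also made by chondrocytes, reached 443, 821 and 445 CPM. Fry was at 121, 279 and 224 CPM and the nuclear RNA Neat1 at 68.9, 174 and 158 CPM. The 10 lowest CVs belonged to Anapc1, Iqgap1, Fam91a1, Npat, Zc3hav1l, Spin1, Jmjd1c, Chd6, Myo9a and Setd2. All 10 were below the CV from counting alone, with 0.0479% against 2.01% for Anapc1 and 0.824% against 1.84% for Setd2. Over 3 libraries, values below counting error do not single out these genes as the steadiest. Anapc1, a subunit of the anaphase-promoting complex, was at 251.5, 251.6 and 251.7 CPM.

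In several lists replicate 2 ran high and replicate 1 low. The deviation of a library was taken as log2 CPM (prior count 2) minus the mean over the 3, and the median over a list's members of mean CPM 10 or more. For the cartilage collagens it was -0.17, 0.32 and -0.06, with 7 of 7 members above their mean in replicate 2, a share not counted over all genes. For proteoglycans it was -0.30, 0.34 and -0.04, and for cell cycle genes -0.23, 0.24 and 0.03. The deviation was wider for the 3 immediate early genes of that level (Klf6, Klf4 and Jund), at -0.55, 0.70 and -0.16, and for 3 erythroid genes (Tfrc, Alas2 and Hba-x) it was -0.27, 0.38 and -0.11. Each of these medians rests on 3 genes. In replicate 2 all 3 immediate early genes were above their mean, but 2 of the 3 erythroid genes were. Alas2 was highest in replicate 3, at 29.3, 32.1 and 46.9 CPM. Such genes can mark tissue handling and blood, and their part in the deviations was not tested. Chondrocyte factors went the other way, at 0.15, -0.12 and 0.00, and Wnt genes stood at 0.19, -0.04 and -0.14. The BMP and TGF-beta list, with 0.03, -0.05 and 0.01, showed little deviation.

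**Figure D5:**
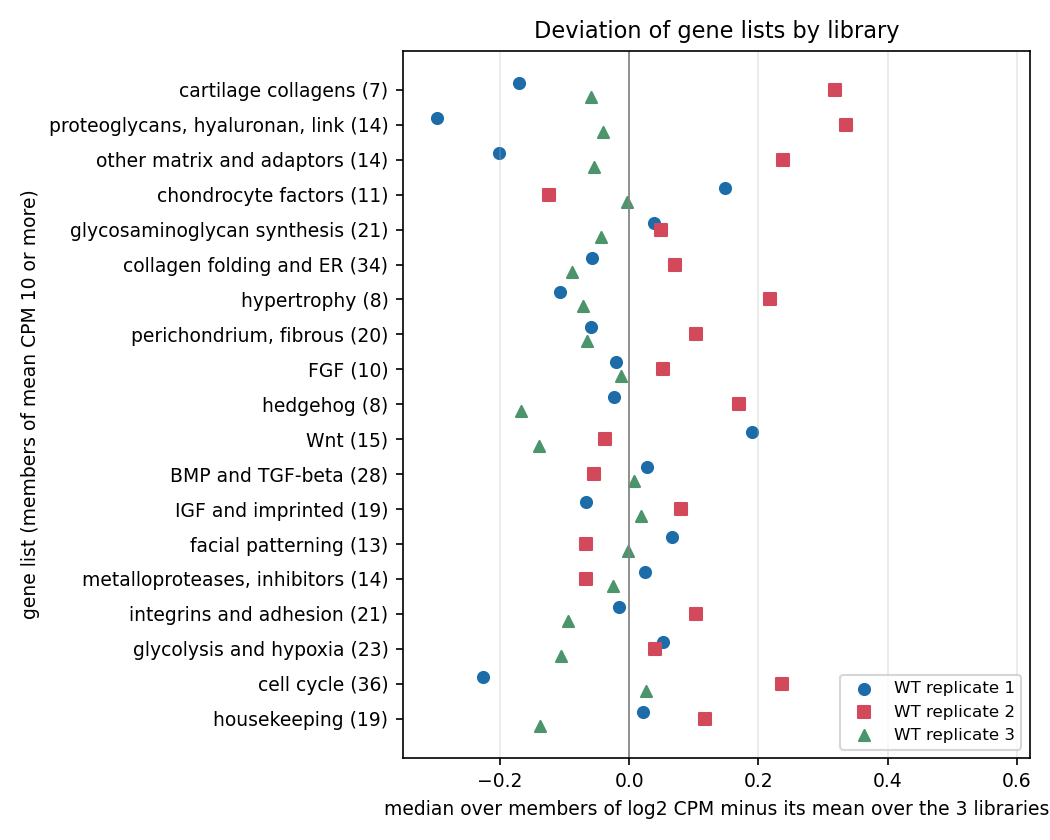
Median deviation of each gene list from the mean of the 3 WT libraries, in log2 CPM, with 1 symbol for each library and the number of members in brackets. Replicate 2 is rightmost for collagens, proteoglycans and cell cycle genes, and replicate 1 is rightmost for chondrocyte factors and Wnt genes.

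GC content moved with the libraries too. Across 12202 genes, Spearman's rho of the deviation with the GC content of the transcript was -0.00 in replicate 1, 0.28 in replicate 2 and -0.32 in replicate 3, a description across genes. With genes in 5 equal groups by GC content, from the lowest group to the highest the median deviation went from -0.09 to 0.15 in replicate 2 and from 0.07 to -0.15 in replicate 3. Relative to genes of like GC content, the cartilage collagens stood at -0.18, 0.11 and 0.11, so that replicates 2 and 3 were level, while the cell cycle genes stood at -0.23, 0.29 and -0.01, with replicate 2 highest. The proteoglycans stood at -0.30, 0.30 and -0.02. The part of GC content in the level of any gene was not tested.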

How the data were processed

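The deposited values are whole-number counts of fragments per gene, deposited without normalization. They came from featureCounts 1.4.4 in paired mode over Ensembl 75 exons, per the file headers, with no strand setting. The submitters' processing notes also name cutadapt, STAR 2.5.2b and mm10. Exon lengths are the files' own. Only the 3 WT libraries were read. The 1317 of 38924 genes that were not matched to a symbol (0.182% to 0.199% of counts) stayed in the totals. GC content came from GENCODE M21 transcripts, and RefSeq gave sequences. A few genes are not reported here.

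Libraries were scaled by TMM (factors 1.00, 0.972 and 1.03) in R 4.3.3 with edgeR 4.0.16, which also gave the dispersion in a fit with an intercept only and filterByExpr; the calculation was tested on simulated data. DESeq2 1.42.0 served as an alternative. The named genes were the 25 highest by CPM and per kb, up to 8 of each list by level, and the 10 highest and lowest CVs; lower list members and genes at 0 counts were picked once their values were known. The members and the 33 gene lists were chosen with earlier results of these data known. The separate embryos are given by the series text; amplification from 15 ng can shift levels by GC content and length.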

Additional observations from a re-analysis of the deposited data

How the results depend on the processing

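No paired analysis was possible because only 1 group was used. Col2a1 averaged 29562 CPM when totals left out the mitochondrial genome, which scales every nuclear gene alike, and 18436 to 22316 with 1 library left out. The count of 308 genes that varied 2 times was 492 on those totals, 1612 at a limit of 1.5 times, 34 at a mean CPM of 50, and 92 (without replicate 2) to 214 (without replicate 3) with 1 library left out; without replicate 1 it was 114. The common biological coefficient of variation was 0.261 with no filter, 0.164 at a mean CPM of 10 or more, 0.212 by DESeq2, and 0.177 to 0.224 with 1 library left out, lowest without replicate 2. Genes detected numbered 8851 at 5 CPM, 16338 at 1 count and 12257 after thinning to the shallowest total. Values relative to genes of like GC content were added after seeing the data. Some list deviations then changed sign, among them the cartilage collagens in replicate 3 (-0.06 to 0.11), the FGF list in replicate 2 (0.05 to -0.03) and the facial patterning list in replicate 2 (-0.07 to 0.00). None of these has a test. Depth limits genes below about 1 CPM, where a gene at 0 may have up to 3 counts.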
